A study of Mus musculus with 74 samples.

Results

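Schwann cell myelin genes were followed in mouse L4 dorsal root ganglion (DRG). The genes were listed by symbol, with earlier results of these data known, and all 8 of them, Mbp, Pmp22, Mag, Prx, Egr2, Mal, Pllp and Cldn19, were found among the 53379 genes counted. RNA sequencing was carried out on whole L4 DRG, with 1 library per mouse, and on cells sorted by fluorescence from dissociated L4 DRG, with 3 wells of about 100 cells per mouse. Whole DRG came from C57BL/6 wild type females of 10 to 12 weeks, 4 uninjured and 4 taken 1 day after spinal cord injury (SCI). Sorted cells came from Thy1YFP16 females of 10 to 20 weeks, in which the Thy1 promoter drives a yellow fluorescent protein (YFP) in large diameter sensory neurons. They comprised 6 naive mice and 4 mice in each of SCI 1d, SCI 3d, SNI 1d and SNI 3d, where SNI is a crush of the sciatic nerve and the number gives the days after injury. By label, naive mice 1, 2 and 5 belong to day 1 and naive mice 3, 4 and 6 to day 3. All 6 were pooled as 1 reference for both days. SCI is given in the labels as a T9/10 dorsal hemisection and in the study's methods as a cut across the dorsal column, and naive mice had no injury. The study left outliers out of its sorted data, but the labels do not mark them, and all 22 sorted mice were kept here. The sorted mice belong to a first set of 12 mice and a later set, named FACS2018 in the labels, of 10 mice. Both sets hold every group. Sorted wells of 1 mouse come from 1 dissociation, so the mouse and not the well was the replicate. Cells were freed with papain and collagenase before sorting.

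Schwann cells wrap the larger axons of the peripheral nervous system in myelin, a stack of compacted membrane that speeds conduction. The myelin programme is driven by the transcription factor Egr2, acting with Sox10, and after an injury to the axon Schwann cells of the distal nerve lower it and take on a repair state that depends on Jun. In the DRG, myelinating Schwann cells lie along the axons within the ganglion, while the neuronal cell bodies are enclosed by satellite glia. Thoracic SCI cuts the central branch of DRG neurons far from the L4 ganglion, whereas a sciatic crush damages the peripheral branch and the Schwann cells around it. Among the genes studied here, Mbp and Pmp22 code for proteins of compact myelin and Mag for an adhesion molecule of the inner myelin membrane facing the axon. Prx codes for periaxin, a scaffold that links the myelin sheath to the basal lamina, Mal and Pllp for tetraspan membrane proteins that sort lipid-rich membrane in myelinating cells, and Cldn19 for a tight junction protein of the Schwann cell. Several of these genes are not exclusive to Schwann cells. Mbp, Mag, Mal and Pllp are also used by oligodendrocytes, and the Mbp gene gives golli transcripts that neurons can make, which counts per gene do not separate.

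The promoters of 3 of these genes are shown as those that, beside the promoter of Egr2 itself, hold a match to a core of the sites that Egr factors bind. The sequences are RefSeq's on GRCm38.p6, from 250 bases before to 50 bases after the start of the gene, on the strand of the gene. Of the 8 genes 7 were searched, all but Mbp, each at its most upstream start. Capitals mark matches on either strand to GTGGGNG (reverse complement CNCCCAC), a core of the sites of Egr factors, and to ACAAAG (reverse complement CTTTGT), a core of Sox sites. The Mag promoter lies at chr7:30914873-30915172 on the minus strand, that of Prx at chr7:27499074-27499373 on the plus strand and that of Cldn19 at chr4:119255191-119255490 on the plus strand.
Mag: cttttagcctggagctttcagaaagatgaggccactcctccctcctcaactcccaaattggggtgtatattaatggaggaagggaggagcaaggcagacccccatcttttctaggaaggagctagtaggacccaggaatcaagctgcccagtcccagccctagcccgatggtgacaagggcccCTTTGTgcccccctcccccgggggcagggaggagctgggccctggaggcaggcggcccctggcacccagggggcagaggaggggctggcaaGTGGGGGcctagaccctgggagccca
Prx: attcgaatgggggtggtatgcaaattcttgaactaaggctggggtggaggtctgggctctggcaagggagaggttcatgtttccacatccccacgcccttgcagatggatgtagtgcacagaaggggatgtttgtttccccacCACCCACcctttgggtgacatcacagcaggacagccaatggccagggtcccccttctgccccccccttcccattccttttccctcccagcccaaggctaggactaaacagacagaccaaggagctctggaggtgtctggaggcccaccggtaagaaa
Cldn19: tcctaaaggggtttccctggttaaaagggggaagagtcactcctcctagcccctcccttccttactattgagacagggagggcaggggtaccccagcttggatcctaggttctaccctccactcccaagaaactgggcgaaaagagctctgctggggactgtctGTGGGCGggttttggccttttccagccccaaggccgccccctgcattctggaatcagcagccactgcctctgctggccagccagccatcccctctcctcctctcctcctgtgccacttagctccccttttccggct
The Egr core was found in 4 of the 7 promoters, those of Mag, Prx, Cldn19 and Egr2 itself, and in 31.6% of all 32851 promoters of this length. These 32851 were not limited to 1 start per gene. The Sox core was found in 1 of the 7, that of Mag, and in 18.7% of all promoters. Both are short motifs that many promoters hold, and a match is a description of the letters only.

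The libraries held 21959030 to 44493319 reads on genes in whole DRG and 1494217 to 49015375 per well of sorted cells, which summed to 30518187 to 83599972 per sorted mouse. Levels are given as CPM, the reads of a gene scaled to the library's own total of reads on genes. The labelled cell type was checked with 2 marker lists that hold none of the 8 myelin genes: 5 Schwann cell genes, among them Sox10, S100b and Ncmap, and 8 neuronal genes (Nefl, Nefm, Nefh, Snap25, Rbfox3, Uchl1, Tubb3 and Thy1). Of the 66 wells labelled as sorted neurons, 19 went against that label, with more reads on the Schwann cell list than on the neuronal list. They came from every group: 6 of 18 naive wells, 3 of 12 in each of SNI 1d, SNI 3d and SCI 1d, and 4 of 12 in SCI 3d. By set they were 7 of 36 wells in the first set and 12 of 30 in FACS2018. Results on sorted cells are therefore given with and without these wells. The 6 oligodendrocyte markers were at or near 0 in both materials. Opalin and Olig2 had 0 reads in all 66 wells, and the whole list summed to at most 5.31 CPM in whole DRG and 8.65 CPM in a well.

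In uninjured whole DRG the myelin genes ranged widely in level. Per kb of annotated exon, Pmp22 was the highest at 255.8 ± 16.1 CPM per kb (SD, n = 4), and Mbp followed at 80.2 ± 6.20. Mal (54.9 ± 5.39) and Prx (54.7 ± 9.12) came next and overlapped each other over the 4 mice. Cldn19 (11.6 ± 0.745) stood below them and above Pllp (5.88 ± 0.201), Egr2 (5.33 ± 0.905) and Mag (5.25 ± 0.542), and the last 3 overlapped. Mbp, Prx, Pllp and Cldn19 each overlap another annotated gene or pseudogene, and the deposited counts set reads that fit more than 1 gene aside as ambiguous, so their levels are uncertain to that extent.

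In whole DRG 1 day after SCI, the first comparison, none of the 8 myelin genes was differentially expressed (DE) by edgeR's quasi-likelihood test at an adjusted p below 0.1, and DESeq2 called none either. Over all 17616 genes tested, 2.32% were DE. Cldn19 alone, 1 of 8, had an unadjusted p below 0.05, as did 2570 of the 17616 genes. The log2 fold changes ran from -0.05 to 0.31, with 6 positive and 2 negative, and their median was 0.115 against 0.014 over all genes tested. No gene had groups whose ranges over mice were apart, which 10.6% of all genes tested did. In a bulk sample, fewer cells of a type and less RNA per cell cannot be told apart, and this applies to every level given here.

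Among the genes of compact myelin, Mbp was at 724, 632, 725 and 635 CPM in uninjured mice 1 to 4 and at 581, 823, 983 and 609.8 CPM in SCI mice 1 to 4. SCI mice 2 and 3 lay above all uninjured mice and SCI mice 1 and 4 below them, so the mean moved little: the log2 fold change was 0.12 (SE 0.15, 95% interval -0.21 to 0.46, edgeR adjusted p = 0.75). Pmp22 was at 557, 638, 628 and 586 CPM in uninjured mice and at 599.6, 826, 809 and 568.3 CPM after SCI. The same SCI mice were the high ones, and the change was 0.20 (SE 0.12, interval -0.06 to 0.46, edgeR adjusted p = 0.47). Mag, on the membrane facing the axon, was at 24.7, 20.3, 20.1 and 20.4 CPM in uninjured mice and at 19.6, 25.9, 25.8 and 19.6 CPM after SCI. The groups overlapped and the change was 0.07 (SE 0.12, interval -0.19 to 0.34, edgeR adjusted p = 0.83).

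Prx, the periaxin gene, was at 379, 273, 299 and 270.0 CPM in uninjured mice and at 282, 362, 415 and 278 CPM after SCI, and changed by 0.11 on the log2 scale (SE 0.15, interval -0.22 to 0.44, edgeR adjusted p = 0.78). Uninjured mouse 1 lay between the 2 high SCI mice. Cldn19 was at 54.2, 48.6, 47.8 and 47.5 CPM in uninjured mice and at 51.5, 69.5, 76.0 and 52.1 CPM after SCI. It had the largest change of the 8 genes, 0.31 (SE 0.13, interval 0.04 to 0.59), with an unadjusted p of 0.030 and an edgeR adjusted p of 0.28, which did not pass. SCI mice 1 and 4 lay below uninjured mouse 1, so the groups overlapped for this gene too.

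Of the tetraspan membrane proteins, Mal was at 132, 151, 159.7 and 167 CPM in uninjured mice and at 131, 168, 157 and 145 CPM after SCI (change -0.04, SE 0.089, interval -0.24 to 0.16, edgeR adjusted p = 0.88). Pllp was at 11.6, 12.4, 12.5 and 12.5 CPM in uninjured mice and at 12.5, 14.3, 15.2 and 11.7 CPM after SCI (change 0.12, SE 0.096, interval -0.09 to 0.33, edgeR adjusted p = 0.62). Mal had the narrowest interval and Egr2 the widest. Egr2, the transcription factor of the programme, was at 17.5, 16.9, 22.5 and 15.4 CPM in uninjured mice and at 11.4, 26.0, 19 and 14.3 CPM after SCI, where it covered a 2.28-fold range over mice (change -0.05, SE 0.22, interval -0.54 to 0.44, edgeR adjusted p = 0.94).

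What the 8 genes shared in whole DRG was the order of the SCI mice. SCI mice 2 and 3 were the highest 2 of the 4 in all 8 genes, and the spread over mice was larger after SCI than in uninjured mice for all 8. Their summed level was 1900.2, 1792, 1913 and 1754 CPM in uninjured mice 1 to 4, a 1.09-fold range. After SCI it was 1688, 2315, 2499.7 and 1699 CPM, a 1.48-fold range. No test of the spread was made, and the share of all genes with this order or with a larger spread after SCI was not counted. Neither is therefore given as particular to the 8 genes. The sum of the red blood cell genes was 20.6 to 90.0 CPM after SCI and 13.3 to 20.8 CPM in uninjured mice, and 4 of its 5 genes rose after SCI (Hbb-bs, Hbb-bt, Hba-a1 and Hba-a2, log2 changes of 1.35 to 1.84). The 5 Schwann cell genes summed to 2327 to 2817 CPM after SCI and 2737 to 2957 CPM in uninjured mice, and the 8 neuronal genes to 17382 to 18292 CPM and 17483 to 19327 CPM. Fibroblast genes summed to 449, 751, 843 and 509 CPM in SCI mice 1 to 4, and to 527 to 964 CPM in uninjured mice. Of all reads in the count files, ambiguous and multiply aligned ones included, reads on no annotated gene made up 8.69%, 9.67%, 9.815% and 7.93% in SCI mice 1 to 4, and 7.73% to 8.69% in uninjured mice. The fibroblast sum and the share of reads on no gene were highest of the SCI mice in mice 2 and 3. So were the sums of the red blood cell, Schwann cell, satellite glia and endothelial genes. The Schwann cell sum was 2327, 2817, 2557 and 2453 CPM in SCI mice 1 to 4. Sums of neuronal, macrophage and repair or immature Schwann cell genes did not have this order. The part of these values in the order of the SCI mice was not tested.

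**Figure D1:**
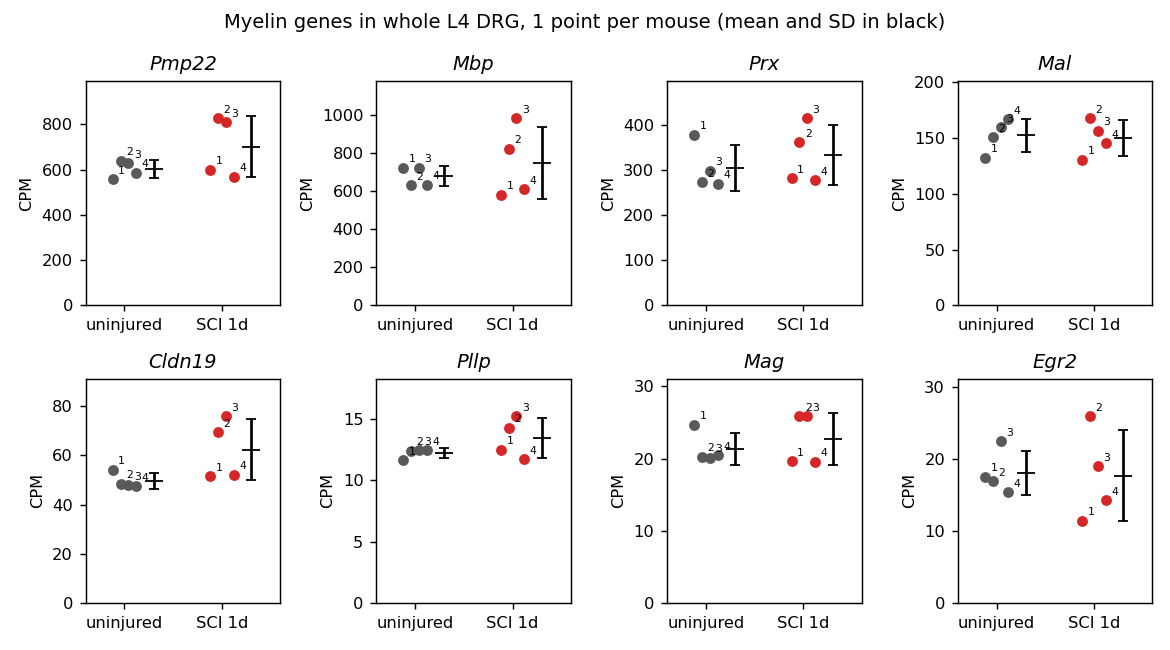
CPM of each myelin gene in whole L4 DRG, with 1 point per mouse, the mouse number beside it and the mean and SD in black, on axes that start at 0. SCI mice 2 and 3 are the highest SCI mice in all 8 panels, and the groups overlap in each.

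Other genes of the pathway were taken from lists chosen by function. Of 12 further myelin structure genes, 1 rose and 1 fell in whole DRG after SCI, and 6 had an unadjusted p below 0.05, as did 2570 of 17616 genes tested. Ncmap, a membrane protein of the non-compact sheath, was at 40.9, 53.7, 55.8 and 57.0 CPM in uninjured mice and at 60.2, 84.7, 84.4 and 75.0 CPM after SCI, and it rose by 0.54 on the log2 scale (SE 0.12, edgeR adjusted p = 0.078). Every SCI mouse lay above every uninjured mouse. Pmp2, a fatty acid binding protein of myelin, was at 1.82, 1.91, 1.77 and 1.12 CPM in uninjured mice and at 0.303, 0.761, 0.630 and 0.448 CPM after SCI, and it fell by 1.62 (SE 0.28, edgeR adjusted p = 0.029), from 40 to 85 reads a library to 9 to 27. None of the 6 myelin lipid genes was DE, with 3 at an unadjusted p below 0.05. None of the 12 regulators, receptors and ligands of the programme was DE, with 5 at an unadjusted p below 0.05 and 9 of 12 changes negative, among them Sox10 at -0.26 (SE 0.091, edgeR adjusted p = 0.23) and Pou3f1 at -0.71 (SE 0.19, edgeR adjusted p = 0.12).

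Of 12 genes of the repair or immature Schwann cell state, 9 had enough reads to be tested and 1 was DE. Jun, which Schwann cells need for the repair state and injured neurons also raise, was at 90.3, 88.3, 79.3 and 74.5 CPM in uninjured mice and at 150.0, 137, 124 and 129 CPM after SCI. The groups were apart and Jun rose by 0.68 on the log2 scale (SE 0.088, edgeR adjusted p = 0.0089). Which cells of the ganglion held these reads cannot be told apart in whole DRG. Ngfr (-0.06, SE 0.089, edgeR adjusted p = 0.79) and Sox2 (-0.23, SE 0.090, edgeR adjusted p = 0.26), which immature Schwann cells also express, did not pass. Among markers of other cells, Glul rose (0.32) and Ednrb fell (-0.49) of 5 satellite glia genes. Of 6 macrophage genes Cx3cr1 fell (-0.62), while the other 5 had positive changes that did not pass, and the median of the list was 0.28. Of 6 fibroblast genes Lum fell (-0.71), with 4 changes negative and 2 positive in that list. None of the 8 neuronal, 4 endothelial and 3 tested oligodendrocyte genes was DE by edgeR, with 1 of them, the endothelial Pecam1, at an unadjusted p below 0.05.

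In the sorted wells the myelin genes marked 2 ranges of libraries. Their summed level was 1553 to 11286 CPM in 46 wells and 22588 to 118263 CPM in the other 20, that is up to 1.13% and 2.26% to 11.8% of all reads on genes, and no well lay between. All 19 wells with more Schwann cell than neuronal reads were above the gap. The 20th, from SNI 3d mouse 3, had nearly as many reads on the Schwann cell list as on the neuronal list. Wells with more Schwann cell reads and wells with more neuronal reads came from the same mouse in 13 of 22 mice, and the highest well of a mouse exceeded its lowest by 1.65-fold to 46.4-fold, with a median of 8.29-fold.

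**Figure D2:**
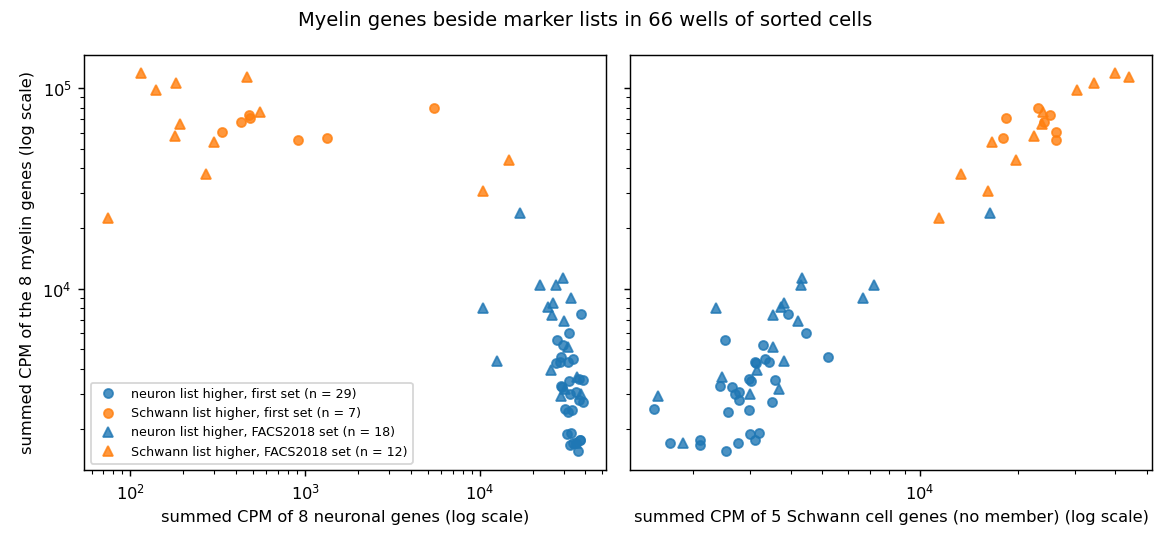
Summed CPM of the 8 myelin genes in each of 66 wells against the summed CPM of 8 neuronal genes (left) and of 5 Schwann cell genes (right), on log scales, by set and by which list is higher. The 19 wells with more Schwann cell reads lie at 22588 CPM and above, and the other 47 wells lie lower save for 1 at 23756 CPM.

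The medians of all 8 genes were higher in the 19 wells than in the 47 others, by least for Mag. For compact myelin, Mbp had a median of 18341 CPM (6010.0 to 39063) in the 19 wells and 977 CPM (297 to 7761) in the 47 others. Pmp22 had a median of 39224 CPM (15595.5 to 78489) against 2560 CPM (1082 to 14766). Both were thus read in every well, also in those where neuronal genes prevailed. Prx had a median of 633 CPM against 23.4 CPM, Mal of 2393 against 83.4 CPM, Pllp of 74.7 against 2.58 CPM and Cldn19 of 350.5 against 14 CPM. Egr2 had a median of 576 CPM in the 19 wells and 24.0 CPM in the others, but 1 of the 19, a well of naive mouse 5, held only 0.929 CPM of it beside abundant Mbp. Mag stood apart. Its median was 7.79 CPM in the 19 wells (0 to 481) and 3.06 CPM in the others (0 to 37.2), and it had 0 reads in 5 wells, 2 of them among the 19. Since the split rests on Schwann cell markers, these values describe the wells and no test was made.

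**Figure D3:**
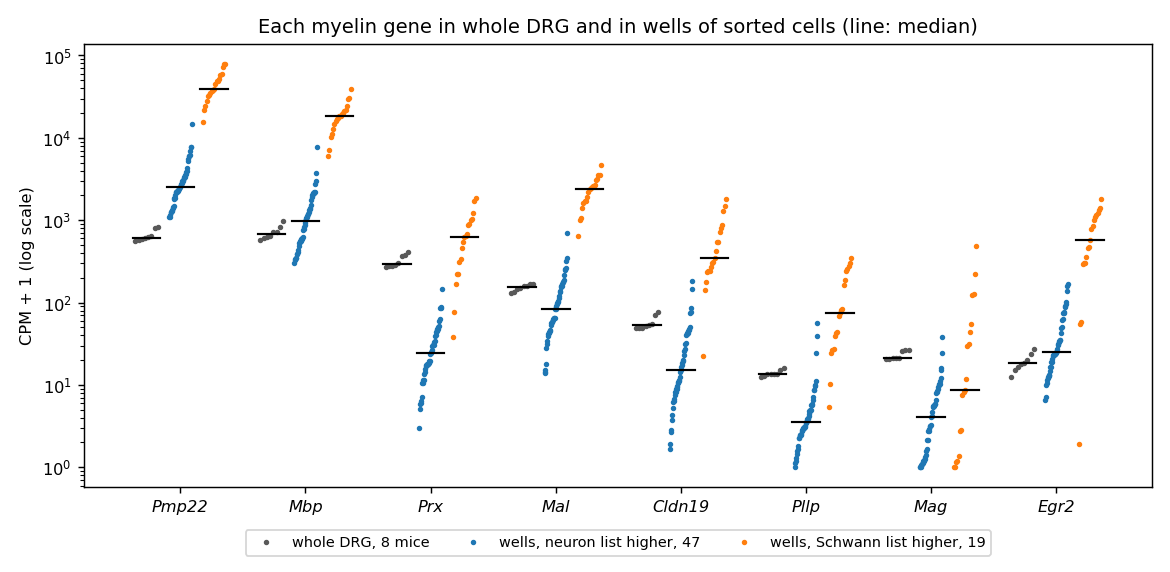
CPM + 1 of each myelin gene on a log scale in 8 whole DRG libraries, 47 wells with more neuronal reads and 19 wells with more Schwann cell reads, with the median of each as a line. The medians of the 19 wells exceed those of the other wells, by least for Mag, from 3.06 to 7.79 CPM.

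Across the 66 wells the genes rose and fell together, again with Mag apart. On log2(CPM + 1), the Pearson correlation of the 28 pairs of genes had a median of 0.82 (Spearman 0.78), and the 15 pairs among Mbp, Pmp22, Prx, Mal, Pllp and Cldn19 lay between 0.81 and 0.97. Pairs that included Mag lay between 0.35 and 0.51. The wells share a kit, and wells of 1 mouse a dissociation, so these are descriptions. Within the 47 wells with more neuronal reads the median over pairs was 0.61, and it was 0.25 over pairs with Mag. The mean of the 8 genes correlated with the Schwann cell list at 0.95 and with the neuronal list at -0.84 over the 66 wells, and at 0.78 and -0.36 over the 47 wells. With the satellite glia list it correlated at 0.19, and with the repair and immature list at -0.37. Fibroblast genes also moved with the myelin genes (0.59), and their sum reached 58067.5 CPM in 1 of the 19 wells. Their part was not tested.

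The genes whose pattern over the 66 wells was most like that of the 8 were named by rule, from 15414 genes with a mean of at least 10 reads a well. Among the 10 most alike were Ncmap (Pearson 0.96), Ogn (0.95), Secisbp2l (0.95), Plekhb1 (0.95), Ndrg1 (0.95), Fam178b (0.95), Gatm (0.94), Drp2 (0.94) and Sparc (0.94). Ncmap and Drp2 code for parts of the Schwann cell myelin sheath, and Ndrg1 is the gene mutated in a hereditary demyelinating neuropathy. Ogn and Sparc code for proteins of the extracellular matrix. Ncmap had a median of 4314 CPM in the 19 wells and 137 CPM in the 47 others.

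The share that each gene took of the 8 differed between whole DRG and sorted wells of either kind. Per kb of exon, Pmp22 made up a median of 54.7% (50.6% to 57.5%) of the 8 genes in whole DRG, 84.3% (78.1% to 89.3%) in the 19 wells and 87.4% (75.3% to 95.4%) in the 47 others. Prx made up 11.1%, 0.487% and 0.311%, and Mag 1.06%, 0.0101% and 0.0633%. The ranges of whole DRG and of the 66 wells were apart for 6 of the 8 genes, all but Mbp and Egr2. These are shares of a common sum, so a larger share of Pmp22 leaves less for the other genes. Genes outside the 8 have no such share, so this count has no value over all genes beside it and is a description only. Egr2 differed least, with medians of 1.02%, 0.862% and 0.612%. Whole DRG libraries were made from RNA depleted of ribosomal RNA and sorted ones with a kit for few cells, so the kit and the cells cannot be told apart.

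Naive sorted cells were set beside uninjured whole DRG as a description. The ranges over mice were apart for 3 of the 8 genes, against 43.3% of 18205 genes (8.2% higher in sorted cells and 35.1% lower). Mbp was at 1136 to 13316 CPM in the 6 naive mice, with a median of 3130.2, and at 632 to 725 CPM in whole DRG. Pmp22 was at 2228 to 44687 CPM, with a median of 6397, against 557 to 638 CPM. Both were higher in sorted cells than in whole ganglion, and remained so when the 19 wells were left out, at 856 to 2112 CPM for Mbp and 1805 to 7823 CPM for Pmp22. Mag was lower, at 1.84 to 18.3 CPM against 20.1 to 24.7 CPM. The other 5 genes overlapped. Without the 19 wells Prx was lower as well, at 19.7 to 84.1 CPM against 270.0 to 379 CPM. In that setting 4 of the 8 genes had ranges apart, beside 8380 of all 17860 genes.

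After injury, none of the 8 genes was DE in sorted cells in any of the 6 comparisons by edgeR with 2 RUVr factors, none had an unadjusted p below 0.05, as 1990 to 3519 of all 23507 genes tested did, and DESeq2 with the same factors called none. Of 23507 genes tested, 0.685% were DE in SNI 1d, 0.706% in SNI 3d, 0.017% in SCI 1d and 0% in SCI 3d, each against naive, and 0% in SNI against SCI at 1d and at 3d. The lowest adjusted p of a myelin gene was 0.47. The standard errors of the log2 changes were 0.56 to 1.09, so changes of the size of the whole DRG values were not detectable. Much larger changes could be missed too. On simulated counts the SNI 1d fit called 30 of 200 genes, not the 8 themselves, that were changed by 3 on the log2 scale. Comparisons with naive mice share those 6 mice.

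Mbp was at 1136 to 13316 CPM in naive mice. It was at 2178, 3089.8, 7228 and 671 CPM in SNI 1d mice 1 to 4, and at 2093, 965, 17193 and 1792 CPM in SNI 3d mice 1 to 4. Each group overlapped the naive mice, with changes of -0.32 (SE 0.57) and -0.51 (SE 0.58). After SCI, Mbp was at 4817, 5511, 14478 and 1759.9 CPM at 1d and at 797, 779, 7422 and 8779 CPM at 3d, with changes of 0.69 (SE 0.56) and -0.01 (SE 0.57). The 2 mice of the first set lay below all naive mice in SCI 3d, and the 2 mice of FACS2018 within their range. Pmp22 was at 2228 to 44687 CPM in naive mice. It was at 7973, 9351, 20274 and 2499 CPM in SNI 1d, at 7099, 2357, 40684 and 4149 CPM in SNI 3d, at 10194, 9201, 23198 and 4883 CPM in SCI 1d and at 1635, 2429, 19982 and 23541 CPM in SCI 3d. Its changes against naive were 0.13, -0.26, 0.38 and 0.22 in that order (SE 0.56 to 0.57).

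Pllp, whose protein sorts membrane in myelinating cells, had the largest negative change of the 8 genes in both SNI groups. It was at 4.72 to 50.3 CPM in naive mice, with a median of 27.7. It was at 13.1, 9.02, 13.9 and 1.15 CPM in SNI 1d mice 1 to 4, within or below the naive range, and its change was -1.55 (SE 0.94, interval -3.53 to 0.42, edgeR adjusted p = 0.47). In SNI 3d it was at 8.66, 2.90, 133 and 2.15 CPM, with 1 mouse far above the rest, and its change was -1.45 (SE 0.97, edgeR adjusted p = 0.54). That change was -2.76 without SNI 3d mouse 3, the high one, and -0.85 without either mouse 2 or mouse 4, and it passed in none of these. Without the 19 wells Pllp was DE in SNI 1d, with a change of -2.36 (SE 0.54, edgeR adjusted p = 0.063; 1.23% of 22653 genes DE, SCI 3d mouse 3 dropped for want of wells), the only call on any of the 8 genes in any setting tried. In SCI 1d it was at 47.6, 50, 55.7 and 0.816 CPM. Its change there was 0.45 with the 19 wells and -1.97 without them (SE 0.53, edgeR adjusted p = 0.32), so the sign depended on these wells.

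**Figure D4:**
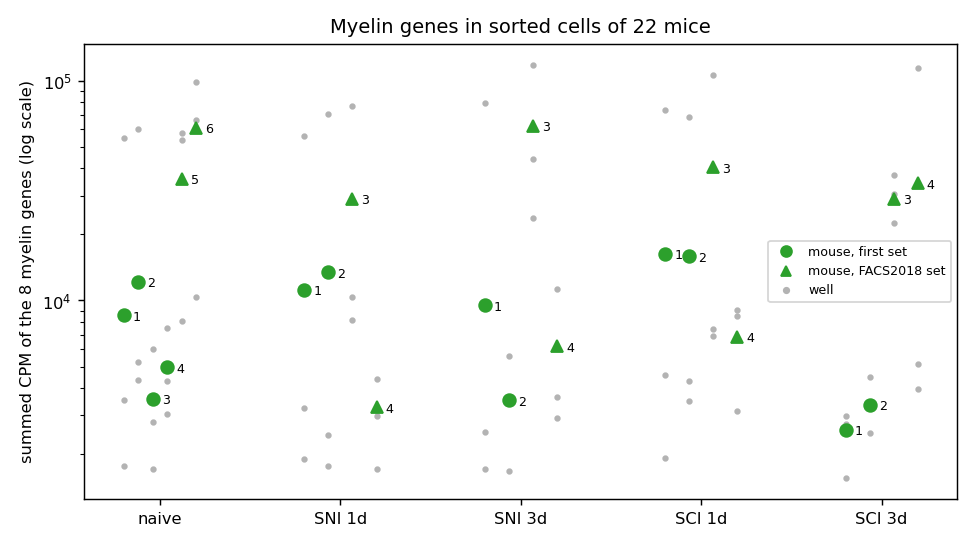
Summed CPM of the 8 myelin genes in sorted cells on a log scale, with 1 green point per mouse (all 3 wells summed), its number beside it and its wells in grey, by group and set. Mice of every group span most of the same range, from 2586 CPM in an SCI 3d mouse to 62337 CPM in an SNI 3d mouse.

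The other 5 genes had the same wide spread. Mag ranged from 0.426 to 46.1 CPM in SNI 1d and from 0.584 to 175 CPM in SNI 3d, and Egr2 from 13 to 392 CPM and from 37.3 to 593 CPM. Over the 8 genes the log2 changes were -1.55 to 0.94 in SNI 1d (median 0.13), -1.45 to 0.33 in SNI 3d (median -0.63), 0.38 to 1.51 in SCI 1d (median 0.63) and -0.79 to 0.79 in SCI 3d (median -0.11). Over all genes tested the medians were 0.17, -0.01, 0.18 and 0.01. All 8 changes were positive in SCI 1d and 7 of 8 negative in SNI 3d, and none passed the test. In the direct comparison of SNI 1d with SCI 1d all 8 changes were negative, -2.01 to -0.19, and none passed.

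Signs differed between the sets. Within the first set all 8 genes were higher in SCI 1d than in naive mice, by 0.72 to 2.13 on log2(CPM + 1), and within FACS2018 6 of 8 were lower. In SNI 1d 7 of 8 were higher in the first set and 6 of 8 lower in FACS2018. In SNI 3d 7 of 8 and 6 of 8 were lower, and in SCI 3d 8 of 8 and 6 of 8. The sign was opposite between the sets for 5 of 8 genes in SNI 1d, 6 in SCI 1d, 3 in SNI 3d and 2 in SCI 3d, and these differences between the sets, with 2 injured mice per set and group, were not tested. The summed level itself differed between sets, at 2586 to 16275 CPM (median 9027) in the first and 3271 to 62337 CPM (median 31644) in FACS2018. Naive mice 1 and 2 of the first set, labelled day 1, were at 8550 and 12197 CPM. Naive mice 3 and 4 of that set, labelled day 3, were at 3574 and 4970 CPM. In FACS2018 naive mouse 5 (day 1) was at 35842.5 CPM and naive mouse 6 (day 3) at 61001 CPM. Injured mice of either day were set against naive mice of both, and the part of the day was not tested. The first RUVr factor, meant to take up unwanted variation, correlated with the mean of the 8 genes at 0.70 over the 22 mice (Spearman 0.80), so part of their spread was taken up by that factor.

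**Figure D5:**
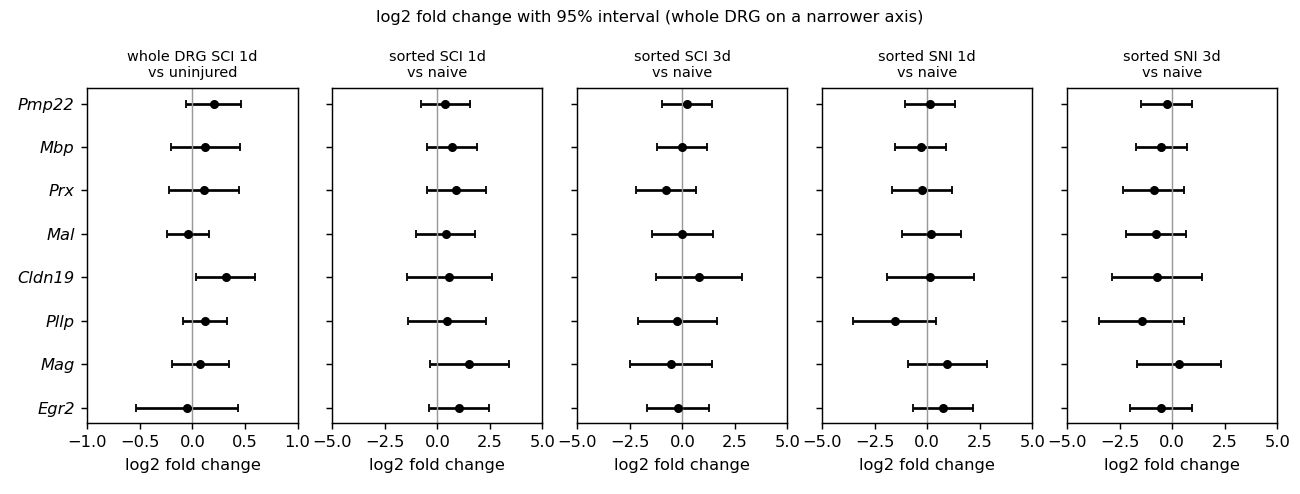
Log2 fold change of each myelin gene with its 95% interval in whole DRG after SCI and in sorted cells after SCI and SNI, each against its own uninjured or naive mice. Whole DRG has a narrower axis, and every interval includes 0 save that of Cldn19 in whole DRG, 0.04 to 0.59.

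Other lists gave 1 call in sorted cells. Of 12 repair or immature genes, 10 were tested, and Ncam1, an adhesion molecule that neurons and non-myelinating Schwann cells also use, rose in SNI 3d against naive by 2.83 on the log2 scale (SE 0.66, edgeR adjusted p = 0.081). None of the further myelin structure, lipid and regulator genes passed in any of the 6 comparisons by edgeR. At an unadjusted p below 0.05 there were 0 to 2 of 12 structure genes, 0 or 1 of 6 lipid genes and 0 to 3 of 12 regulators per comparison, beside 1990 to 3519 of all 23507 genes. Ncmap was at 166 to 3798 CPM in naive mice, 201 to 1817 CPM in SNI 1d, 189 to 3279 CPM in SNI 3d, 576 to 2923 CPM in SCI 1d and 97.4 to 3142 CPM in SCI 3d, overlapping in every group.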

How the data were processed

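RNA was sequenced from 8 whole L4 DRG libraries and 66 sorted wells. The authors trimmed reads with Cutadapt, aligned them to mouse (mm10, GRCm38) with STAR 2.5.3a and counted them per gene with HTSeq 0.6.1, and the deposited count values are whole reads without normalization. Whether counting used strand is not given in the sources used here. The 5 lines that name no gene were left out (no feature: 2.01% to 11.77% of reads). The authors' tables of comparisons hold their fold changes and p-values beside 123 columns of normalized values, none of which was used.

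Of 53379 identifiers, 53274 matched GENCODE vM21, whose exons gave lengths. The whole DRG fit kept genes whose mean count reached 10. In sorted cells the 3 wells of a mouse were summed, genes that reached 20 reads in any mouse were kept, and the 22 mice entered 1 fit with 2 RUVr factors from gene-centred deviance residuals. Comparisons used edgeR 4.0.16 (quasi-likelihood F-test, TMM, Benjamini-Hochberg over all genes tested, threshold 0.1) in R 4.3.3, with DESeq2 1.42.0 as an alternative, whose calls were counted for the 8 myelin genes and over all genes. The fits were tested on simulated counts in which 200 genes were changed by a known amount. In whole DRG, 191 of the 200 were called at a log2 change of 1 and 109 at 0.5, beside 26 and 12 other genes. In sorted cells, the fit of SNI 1d against naive called 30 of the 200 at a log2 change of 3 and 119 at 6, beside 0 and 12 other genes. Descriptions used Python 3.11.15 with pandas 2.3.3, and plots matplotlib 3.10.9. RefSeq promoters were on GRCm38.p6.

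Groups followed the labels, save that naive mice of day 1 and day 3 were pooled. The 8 genes and all lists were chosen with earlier results of these data known. All 8 genes were named throughout, from other lists the genes past the threshold (at most 4 in each direction), and the 10 genes most like the 8 over wells. Other list genes named here, such as Sox10 and Pou3f1, were chosen after their values were seen, and results of 2 single genes of the lists are not reported here. Alternatives were the tool, size factors, no count filter, other covariates, a replicate block, leaving out satellite-rich wells and leaving out each mouse. Leaving out the 19 Schwann-rich wells was added after the data were seen.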

Additional observations from a re-analysis of the deposited data

Results flagged for a closer look

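Within groups of 4 to 6 mice, 13 of 56 combinations of a myelin gene and a group held a mouse whose gap to the others passed Dixon's 95% limit. For normally distributed values chance gives about 1 in 20. CPM over sorted mice was skewed, as for Mag in SNI 3d with a mean of 46.5 CPM and a median of 5.00 CPM, so that rate need not hold there. The genes are also not independent of one another, and the 13 combinations are not given as an excess. The 7 of them in SNI 3d were the same mouse, mouse 3, whose Mbp was at 17193 CPM (others 965 to 2093), Pmp22 at 40684 (others 2357 to 7099), Mag at 175.5 (others 0.584 to 5.13), Prx at 886 (others 24.5 to 36.3), Egr2 at 593 (others 37.3 to 48.0), Mal at 2409 (others 100.3 to 158) and Pllp at 133 (others 2.15 to 8.66). All 3 wells of this mouse lay in the upper range of summed myelin genes.

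In whole DRG, uninjured mouse 1 stood apart from the other uninjured mice in Mag at 24.7 CPM (others 20.1 to 20.4) and Cldn19 at 54.2 CPM (others 47.5 to 48.6), which were high, and in Pllp at 11.6 CPM (others 12.4 to 12.5), which was low. In sorted cells, Mag was high in SCI 3d mouse 4 at 7.81 CPM (others 2.48 to 3.19). Cldn19 was high in SCI 1d mouse 3 at 534 CPM (others 28 to 74.8), and Pllp was low in SCI 1d mouse 4 at 0.816 CPM (others 47.6 to 55.7).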

How the results depend on the processing

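No myelin gene was DE in whole DRG under any of 4 alternatives or without any 1 mouse, while calls over all genes went from 408 to between 127 and 929, and to 104 to 640 without a mouse. In sorted cells calls over all genes went from 161 in SNI 1d and 166 in SNI 3d to 1539 and 2250 with DESeq2 (30 to 177 and 9 to 896 without a mouse), from 4 in SCI 1d and 0 in SCI 3d to 1223 and 1202, and from 0 to 1109 and 989 in the direct comparisons at 1d and 3d. Of the myelin genes 1, Pllp in SNI 1d, was DE, only without the 19 Schwann-rich wells (-2.36). Without these wells SNI 3d had 2337 calls. The cause of these differences was not tested. With the replicate number as a block, whole DRG had 127 calls and neither material had a DE myelin gene. Deviations of whole DRG mice with the same number correlated at -0.23, 0.10, -0.12 and 0.33, so the numbers were not taken to pair them.

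None of the log2 changes that turned sign had passed the test. Without covariates Pmp22 was at -0.86 in SNI 1d, 0.073 in SNI 3d, -0.63 in SCI 1d and -0.32 in SCI 3d, Mbp at 0.16 in SNI 3d and -0.10 in SCI 1d, and Pllp at 0.87 in SNI 3d. With the set in place of RUVr, Pmp22 was at -0.17 in SNI 1d and -0.73 in SCI 3d, and Pllp at 0.061 in SNI 3d. Without the 11 satellite-rich wells Pmp22 was at -0.21 in SNI 1d, 0.018 in SNI 3d and -0.91 in SCI 1d, Mbp at -0.99 in SCI 1d and 0.47 in SCI 3d, and Pllp at -3.69 in SCI 1d. Without the Schwann-rich wells Pmp22 was at -0.22 in SNI 1d, 0.052 in SNI 3d, -0.070 in SCI 1d and -0.54 in SCI 3d, Mbp at 0.11 in SNI 3d, and Pllp at -1.97 in SCI 1d. With DESeq2's size factors Pmp22 was at -0.033 in SNI 1d. In SCI 3d Mbp was at 0.037 with residuals not centred and 0.10 under the block, where Pllp was at 0.82.

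Leaving out 1 mouse gave, in whole DRG, -0.026 to 0.23 for Mbp, -0.29 to 0.12 for Egr2 and -0.092 to 0.027 for Mal. In sorted cells it gave -0.88 to 0.090 for Mbp in SNI 1d and -1.42 to 0.54 in SCI 3d, and -1.77 to 0.30 for Pllp in SCI 3d. For Pmp22 it gave -0.34 to 0.59 in SNI 1d, -1.16 to 0.24 in SNI 3d, -0.17 to 0.89 in SCI 1d and -1.23 to 0.80 in SCI 3d. Without satellite-rich wells 5 myelin genes, not 3, had ranges apart between naive sorted cells and whole DRG. Over all genes, 8190 of 17996 had ranges apart in that setting, beside 7879 of 18205 in the main one. Without Schwann-rich wells the median correlation over pairs of genes was 0.61.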
